A study of Homo sapiens with 3 samples.

Results

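The clustered histone genes were taken as the protein-coding genes of GENCODE release 44 on hg19 whose symbol begins with H2AC, H2BC, H3C or H4C and a number, together with H1-1 to H1-6. The rule found 65 of 20176 protein-coding genes. Of these, 6 encode the linker histone H1, which binds the DNA between nucleosomes, and the others encode the core histones of the nucleosome: 16 encode H2A, 17 encode H2B, 13 encode H3 and 13 encode H4. The data came from MDA-MB-231, an established cell line of human triple-negative breast cancer, grown in medium with serum and fixed with formaldehyde for 10 min without any other treatment. Chromatin was immunoprecipitated with an anti-BMAL1 or an anti-MAX antibody and sequenced (ChIP-seq), giving 1 BMAL1, 1 MAX and 1 input library. There were no replicate libraries, so no spread between replicates could be given, no difference between genes was tested, and every interval covers counting error only. Where intervals are set side by side, that is a description and not a test.

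Clustered histone genes are transcribed mainly in S phase, when newly made DNA has to be packed into nucleosomes. Their mRNAs end in a stem-loop in place of a poly(A) tail and are processed by factors of their own at nuclear sites called histone locus bodies, where NPAT, a substrate of cyclin E and CDK2, promotes transcription. Many H2A and H2B genes lie head to head and share the DNA between them as a promoter. MAX is the obligate partner of MYC and of the MNT and MXD repressors, and BMAL1 is the partner of CLOCK in the circadian activator. Both bind DNA as dimers at E-boxes, for which the canonical letters are CACGTG. The comparison asked how often these factors had a peak at the promoters of the histone genes, beside the other protein-coding genes.

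The histone genes formed 7 blocks, if genes more than 500 kb apart were split. Chromosome 6 held 51 of them in 3 blocks and chromosome 1 held 12 in 2 blocks, while H4C16 lay alone on chromosome 12 and H2BC12L on chromosome 21. Together they had 93 annotated transcription start sites (TSSs), and 15 genes had more than 1. The main TSS is here that of the canonical transcript. When TSSs within 1 kb were merged, 54 separate promoters remained, because 22 genes stood in 11 divergent pairs whose main TSSs were 193 to 978 bp apart (median 243 bp).

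The sequences of hg19 between the TSSs of 2 such pairs are shown because they hold the letters that recur in H2A and H2B promoters. H2BC4/H2AC6 (chr6:26124155-26124372, plus strand) is the only pair with a MAX peak within 1 kb of a TSS, and H2BC11/H2AC11 (chr6:27100575-27100821, plus strand) is a pair without one. They are followed by the 150 bases upstream of the most upstream TSS of an H1, an H3 and an H4 gene without a MAX peak, H1-1 (chr6:26018016-26018165), H3C2 (chr6:26032328-26032477) and H4C4 (chr6:26189341-26189490), and of H4C8 (chr6:26285867-26286016), the histone gene with the strongest MAX peak. The last 4 are printed on the minus strand, in the direction of transcription. Capitals mark the CCAAT box (CCAAT, or ATTGG on the other strand), the octamer (ATTTGCAT or ATGCAAAT) and TATA letters (TATAAA or TTTATA), which overlap where TTTATAAA occurs.
H2BC4/H2AC6: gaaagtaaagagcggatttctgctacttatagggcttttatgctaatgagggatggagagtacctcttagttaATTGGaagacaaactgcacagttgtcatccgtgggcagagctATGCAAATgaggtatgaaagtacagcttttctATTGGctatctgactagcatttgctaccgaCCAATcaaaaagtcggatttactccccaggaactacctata
H2BC11/H2AC11: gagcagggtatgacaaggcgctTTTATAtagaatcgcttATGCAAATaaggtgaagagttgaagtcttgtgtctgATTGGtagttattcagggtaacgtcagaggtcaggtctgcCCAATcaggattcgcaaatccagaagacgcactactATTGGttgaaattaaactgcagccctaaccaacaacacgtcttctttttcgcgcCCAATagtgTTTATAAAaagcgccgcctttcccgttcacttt
H1-1: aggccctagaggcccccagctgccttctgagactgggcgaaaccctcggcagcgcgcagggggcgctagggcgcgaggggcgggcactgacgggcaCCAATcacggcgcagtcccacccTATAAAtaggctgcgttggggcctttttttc
H3C2: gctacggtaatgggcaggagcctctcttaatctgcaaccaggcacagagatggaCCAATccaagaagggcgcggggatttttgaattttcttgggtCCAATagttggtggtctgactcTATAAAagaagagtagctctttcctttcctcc
H4C4: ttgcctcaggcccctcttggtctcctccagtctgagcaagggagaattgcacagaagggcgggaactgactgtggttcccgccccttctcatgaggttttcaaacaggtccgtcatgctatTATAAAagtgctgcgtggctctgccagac
H4C8: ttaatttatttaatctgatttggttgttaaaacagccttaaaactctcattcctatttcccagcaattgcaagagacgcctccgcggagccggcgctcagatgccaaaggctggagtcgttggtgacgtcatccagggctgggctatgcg

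The canonical E-box CACGTG was in none of these 6 stretches. H2BC4/H2AC6 held 3 CCAAT boxes and 1 octamer, and H2BC11/H2AC11 held 4 and 1. H1-1 had 1 CCAAT box and H3C2 had 2, each upstream of TATA letters close to the TSS, while H4C4 had TATA letters without a CCAAT box and H4C8 had none of the letters searched.

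The MAX list held 13650 peaks from 11545865 tags and the BMAL1 list 756 peaks from 13866783 tags, each called against an input of 29308882 tags. At the genome-wide background of 1.28 extended fragments, the weakest MAX peak listed had a pileup of 9, a 7.02-fold enrichment. Where the local input was higher, peaks of more fragments were listed at lower fold enrichments, down to 1.53. A further 2 coding genes of the clusters, under the older symbols HIST1H4B and HIST2H2AA3, fell outside the rule, and neither had a MAX or a BMAL1 peak.

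MAX had a peak at few of these genes. A gene was counted when a peak summit lay within 1 kb of any of its TSSs. This was so for 4 of the 65 histone genes (6.15%, Wilson 95% interval 2.42% to 14.8%), H4C8, H4C16, H2BC6 and H2BC4, by 4 separate MAX peaks. Among all protein-coding genes it was so for 7310 of 20176 (36.2%). Counted over merged promoters, 4 of 54 histone promoters had a MAX peak (7.41%, interval 2.92% to 17.6%), against 34.4% of the 18691 promoters of all protein-coding genes. Genes that share a promoter are not independent, so the interval over genes is narrower than it would be for independent units.

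BMAL1 had no peak at any of them. The count was 0 of 65 histone genes, which allows a share of up to 4.62%, and 1.84% of all protein-coding genes had a BMAL1 peak by the same rule. With 756 BMAL1 peaks in the genome, a share below that of other genes was therefore not detectable in 65 genes. The nearest BMAL1 summit was 163459 bp away, from H2BC12L, and the median distance over the histone genes was 1495420 bp, against 909632 bp over all protein-coding genes.

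By histone class, a MAX peak was found at 2 of 17 H2B genes and 2 of 13 H4 genes, and at 0 of 6 H1, 0 of 16 H2A and 0 of 13 H3 genes. These counts are too small to order the classes, since the Wilson interval was 3.29% to 34.3% for H2B and the counts of 0 allow a share of up to 18.8% for H2A, 23.1% for H3 and 50% for H1. The H2A genes without a MAX peak were H2AC1, H2AC4, H2AC6, H2AC7, H2AC8, H2AC11 to H2AC17, H2AC19 to H2AC21 and H2AC25. The 15 H2B genes without one were H2BC1, H2BC3, H2BC5, H2BC9 to H2BC15, H2BC17, H2BC18, H2BC21, H2BC26 and H2BC12L. The 13 H3 genes were H3C1 to H3C4, H3C6 to H3C8 and H3C10 to H3C15, and the 11 H4 genes H4C1, H4C3, H4C4, H4C5, H4C7, H4C9 and H4C11 to H4C15.

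The strongest of the 4 peaks was at H4C8 (chr6:26285390-26285806). Its summit lay 97 bp downstream of the main TSS, in the coding sequence, where an exon of a long non-coding RNA (ENSG00000289447) is also annotated, and 85 bp from the TSS of that RNA. The pileup, the number of extended fragments that cover the summit, was 17 (exact Poisson 95% interval 9.90 to 27.2). The fold enrichment, which is this pileup over the local background taken from the input, was 11.07, and the −log10 p of the peak caller was 13.1. The fold enrichment was higher than at 59.7% of the 7285 MAX peaks within 1 kb of a protein-coding TSS, and the pileup higher than at 35.9% of them. It was the only one of the 4 summits within 300 bp of the main TSS of its gene.

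At H2BC6 the MAX peak (chr6:26171954-26172306) had a pileup of 14 (interval 7.65 to 23.5) and was enriched 10.91-fold, with a −log10 p of 11.01. Its summit was 215 bp upstream of an alternative TSS and 11917 bp upstream of the main one, so it did not lie at the promoter of the canonical transcript. It lay in introns of non-coding transcripts.

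At H2BC4 the peak (chr6:26123157-26123456) had the lowest pileup of the 4, 12 (interval 6.20 to 21.0), and was enriched 9.35-fold, with a −log10 p of 8.9. The summit was in an intron of H2BC4, 765 bp downstream of the nearest TSS and 787 bp downstream of the main TSS. An unclassified transcript (ENSG00000291336) started 34 bp from it. The peak thus ended outside the shared promoter of H2BC4 and H2AC6 printed above.

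H4C16, the solitary H4 gene of chromosome 12, had the peak of lowest fold enrichment (chr12:14922890-14923272), 6.6 with a pileup of 13 (interval 6.92 to 22.2) and a −log10 p of 7.61. Its summit was in a non-coding exon, 106 bp downstream of an alternative TSS and 1067 bp downstream of the main TSS. Only 8.40% of the promoter MAX peaks had a lower fold enrichment, and 7.33% a lower pileup.

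Each of the 4 peaks was within 1 kb of 1 histone gene only, and none overlapped a BMAL1 peak. The first gene outside the limit was H2AC6, with a TSS 1006 bp from the H2BC4 summit. A further MAX peak in an intron of H2AC6 (pileup 18, fold enrichment 9.14) was 2061 bp from its nearest TSS. After these, the next MAX summits were 10784 bp upstream of H4C8 (fold enrichment 7.19) and 11642 bp from H2AC21, the latter 2 bp from a TSS of the neighbouring gene BOLA1.

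As a group the peaks had a fold enrichment near the middle of promoter peaks but few fragments. The median fold enrichment was 10.13 over the 4 peaks and 10.15 over the 7285 promoter MAX peaks. The median pileup was 13.5 fragments against 18, the median −log10 p was 9.96 against 13.1, and the median length was 368 bp against 481 bp. None of the 4 reached the highest values of other promoters, where the pileup rose to 170 and the fold enrichment to 60.8.

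**Figure D1:**
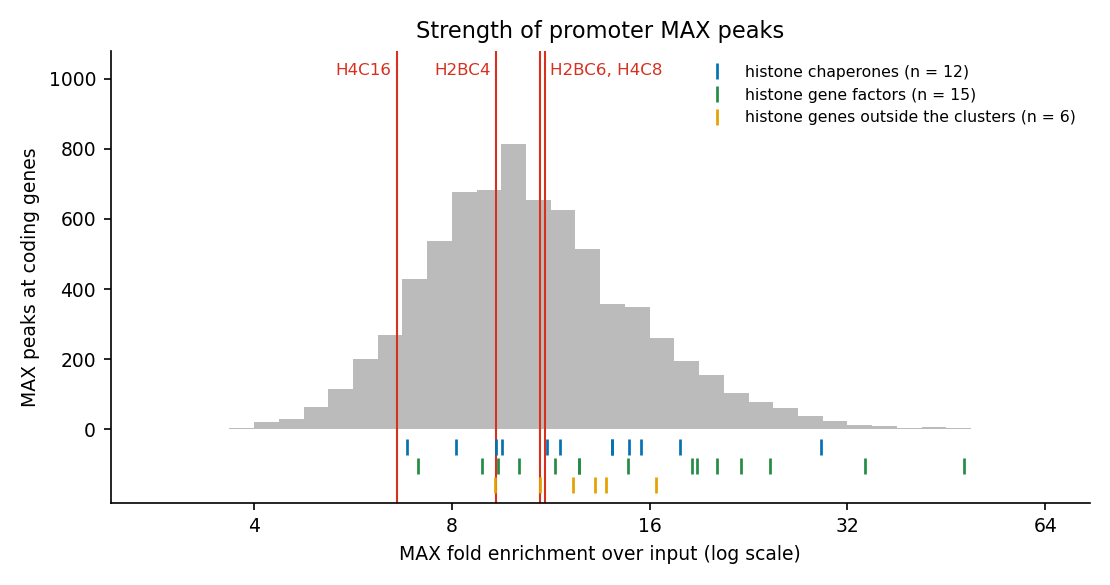
Distribution of MAX fold enrichment over input (log scale) for the 7285 MAX peaks within 1 kb of a protein-coding TSS, with the number of peaks on the vertical axis. Red lines stand for the 4 peaks at clustered histone genes, between 6.6 and 11.07, and coloured ticks for the strongest peak of each gene in the 3 other lists that had one, which reached 48.08.

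The letters CACGTG were in 0 of the 4 windows of 200 bp centred on these summits, and in 1493 of 7285 windows (20.5%) at promoter MAX peaks. With 4 windows these shares cannot be told apart. No CACGTG was found within 500 bp of the 4 summits either. The related E'-box (CACGTT, or AACGTG on the other strand) had its centre 132.5 bp from the H4C8 summit and 136.5 bp from the H2BC6 summit, outside the 200 bp windows. Both are printed on the plus strand with 12 bases to each side and the E'-box in capitals, at chr6:26285518-26285547 for H4C8 and chr6:26172194-26172223 for H2BC6, since they were the nearest E-box-like letters to any of the 4 summits.
H4C8 E'-box: agcgtcacgaatCACGTTctccaggaacac
H2BC6 E'-box: accacagagccaCACGTTacgccgccgccc

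At the MAX peak 10784 bp upstream of H4C8, which was assigned to no gene, CACGTG had its centre 11.5 bp from the summit.

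Most histone genes had no MAX peak in their vicinity. For 60 of the 65, no MAX summit lay within 10 kb of a TSS. A summit lay within 10 kb of 5 of the histone genes (7.69%) and of 46.3% of the other protein-coding genes, within 20 kb of 15 (23.1%) and 53.4%, and within 50 kb of 28 (43.1%) and 65.8%. At 100 kb the shares were close, 48 of 65 (73.8%) and 76.3%. The median distance to the nearest MAX summit was 56860 bp for the histone genes and 14566 bp for the other genes.

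**Figure D2:**
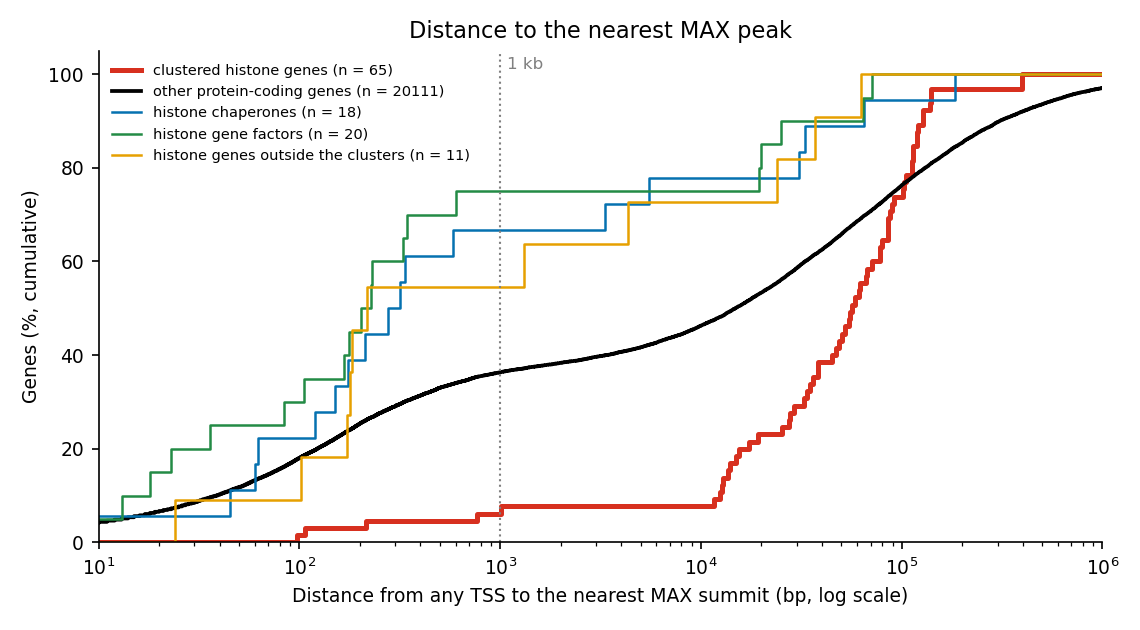
Cumulative share of genes (vertical axis, %) by the distance from any TSS to the nearest MAX summit (bp, log scale). The line of the 65 clustered histone genes stays at 5 genes (7.69%) between 2 kb and 10 kb, under the lines of the 20111 other protein-coding genes and of the 3 other lists, and meets the line of the other genes near 100 kb, where it stands at 73.8%.

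None of the 6 linker histone genes had a MAX summit within 10 kb. The distance was shortest for H1-6, the testis form, at 15004 bp, and for H1-4 at 15515 bp, both close to the median of other protein-coding genes. It was 50450 bp for H1-3, 66669 bp for H1-2, 105352 bp for H1-1 and 114397 bp for H1-5. H1-5 is the only one in the chromosome 6 block of highest coordinates, and the other 5 lie in the first.

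Within chromosome 6, the 3 genes with a MAX peak all belonged to the first block of 30 genes, which spans 559 kb from chr6:25726790 to 26285762. The blocks of 5 genes at chr6:27100574 to 27114885 and of 16 genes at chr6:27775707 to 27861203 had none, and no MAX peak of any kind lay inside them or within 20 kb of them. The blocks cannot be ordered by these counts, with a Wilson interval of 3.46% to 25.6% for the first and counts of 0 that allow a share of up to 60% and 18.8% for the others.

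Per Mb, the whole segment from the first to the last chromosome 6 histone TSS (2.13 Mb) was not poor in MAX peaks. It held 15 MAX peaks, or 7.03 per Mb, against 4.50 per Mb in the genome, and 0 BMAL1 peaks. The rate per Mb takes no account of how densely genes lie. Of these 15, 3 were at the histone genes, 4 within 1 kb of other protein-coding TSSs and 8 elsewhere. The segment has 21 other protein-coding genes, of which 3 had a MAX peak (14.3%, against 36.2% of all protein-coding genes). Among the 21 are HIST1H4B and ENSG00000282988, a gene model with the main TSS of H2AC7, and without these 2 the count was 3 of 19 (15.8%). The 3 were ABT1 (fold enrichment 16.37, summit 70 bp from a TSS), ZNF184 (13.96, 91 bp) and HMGN4 (12.31 and 8.46 at 2 peaks), and each gene had a peak with a fold enrichment above all 3 at the histone genes. The promoters of these 3 genes had a GC content of 56.7% to 57.7%, and the median of the 21 was 45.7%.

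**Figure D3:**
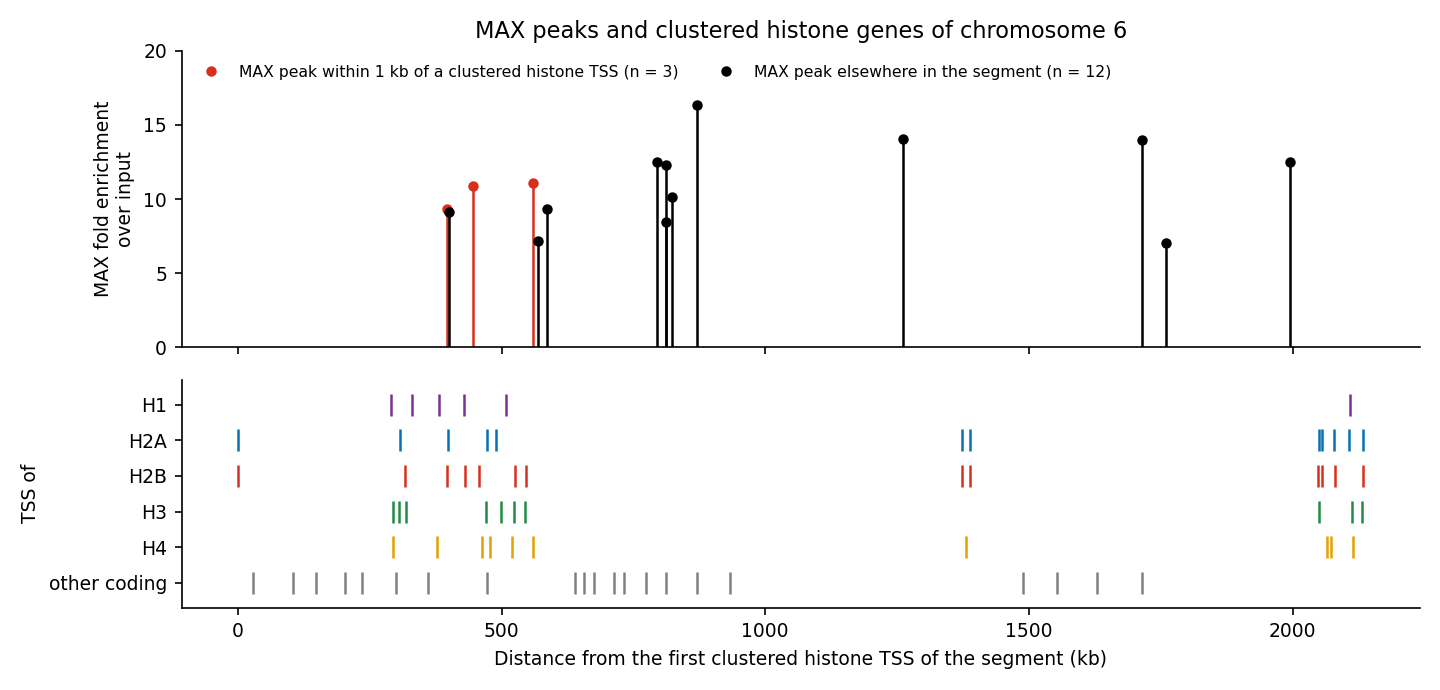
MAX peaks of the chromosome 6 segment (top, fold enrichment over input at the summit) above the main TSSs of the clustered histone genes by class and of other protein-coding genes (bottom), by distance from the first clustered histone TSS (kb). The 3 peaks at clustered histone genes, in red, all stand among the genes of the first block, with fold enrichments of 9.35 to 11.07, and no peak stands at the 2 other blocks.

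Outside chromosome 6, 1 of 14 histone genes had a MAX peak, H4C16. On chromosome 1, the 10 genes between chr1:149783925 and 149859515 (H2BC18, H3C13, H4C14, H3C14, H2AC19, H3C15, H4C15, H2BC21, H2AC20 and H2AC21) had none, and their distances to the nearest MAX summit, which for all 10 was the one at BOLA1, ran from 11642 bp for H2AC21 to 87229 bp for H2BC18. The divergent pair H2AC25 and H2BC26 on the same chromosome lay 28910 bp and 27630 bp from a summit. H2BC12L on chromosome 21 lay 36012 bp from one.

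Several chromosome 1 genes are near-identical copies, in which short reads cannot be placed uniquely. Of the 50-base words within 300 bp of the main TSS, all occurred once in the genome for 37 of the 65 genes and under 50% did for 8 genes. None of the words was unique at H4C14, H3C14, H2AC19, H3C15 and H4C15 of chromosome 1, while the share was 28.6% at H3C13 and 36.4% each at H4C11 and H4C12 of chromosome 6. How reads with several matches were treated is not given in the sources used here, so these 8 genes carry little information. Leaving them out changed little, with 4 of 57 histone genes (7.02%) against 37.7% of other genes. Among the 37 genes with unique words only, 2 had a MAX peak (5.41%), H4C8 and H4C16, against 39.1% of other genes.

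The promoters of the histone genes were unusual in base composition. GC content was measured from 250 bp before to 50 bp after the main TSS, and the CpG ratio is the number of CpG dinucleotides over that expected from the C and G content. The median GC content was 44% (range 36.3% to 58.0%) in the histone genes, 63.7% in all protein-coding genes and 66.0% in those with a MAX peak. The CpG ratio did not stand apart in this way, with a median of 0.756 against 0.773 and, in genes with a MAX peak, 0.870. The class medians of GC content were 49.5% for H1, 48% for H4, 42.3% for H2B and 42.0% for both H2A and H3. H4C8, the gene with the strongest peak, was at 50.0% GC and a CpG ratio of 0.866, and the 3 others with a MAX peak at 38.0% to 43.3% and ratios of 0.525 to 0.573. The summits themselves lay outside the stretch measured, 97 bp (H4C8), 787 bp (H2BC4), 1067 bp (H4C16) and 11917 bp (H2BC6) from the main TSS. The groups by base composition and motif below thus describe the main promoter of a gene, wherever its peak lay.

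MAX peaks were rarer at low GC content in general. Among other protein-coding genes with a promoter under 50% GC, 261 of 3253 had a MAX peak (8.02%, interval 7.14% to 9.01%), and among the histone genes of this kind 3 of 55 did (5.45%, interval 1.87% to 14.9%), and these intervals overlapped. By GC content, a MAX peak was found at 1 of 10 histone genes under 40%, against 3.99% of others, and at 2 of 27 between 40% and 45%, against 5.93%. The count was 0 of 18 between 45% and 50%, against 13.4%, 1 of 8 between 50% and 55%, against 27.2%, and 0 of 2 between 55% and 60%, against 38.2%. The histone shares were above those of other genes under 45% GC and below them from 45% to 60%. With at most 2 histone genes with a peak in any bin, the shares cannot be told apart bin by bin. Over the whole GC range of the histone genes (36.3% to 58.0%), 21.2% of other genes had a MAX peak (interval 20.2% to 22.3%), against 6.15% of the histone genes (2.42% to 14.8%).

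Among other genes whose GC content and CpG ratio both lay within the ranges of the histone genes, 1153 of 3619 had a MAX peak (31.9%, interval 30.4% to 33.4%), but most histone genes lay at the low end of that GC range. With both values within the quartiles of the histone genes (41.3% to 47.3% GC and a ratio of 0.616 to 0.935), a peak was found at 32 of 118 other genes (27.1%) and 0 of 19 histone genes, which allows a share of up to 15.8%, and with unique words only at 29 of 94 (30.9%) and 0 of 12, which allows up to 25%. These counts of 0 depend on where the limits fall, since 3 of the 4 genes with a MAX peak had ratios just under the lower quartile and H4C8 had a GC content above the upper one. At lower ratios, a MAX peak was found at 0 of 4 histone genes from 0.2 to 0.4 and at 3 of 8 from 0.4 to 0.6. In the latter bin the share of other genes at all GC contents was 19.7%. The histone count was 0 of 26 from 0.6 to 0.8, against 42.4% of other genes. It was 1 of 17 from 0.8 to 1.0, against 51.3%, and 0 of 10 above 1.0. Under 50% GC with a ratio of 0.6 or more, 0 of 44 histone genes had a peak, which allows up to 6.82%. Among other genes of this kind, 117 of 352 did (33.2%, interval 28.5% to 38.3%). The 4 histone genes with a peak fell outside this group, H4C8 at 50% GC and 3 by their ratio. These strata were chosen after the values were seen, and the part of base composition in the low count was not tested.

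**Figure D4:**
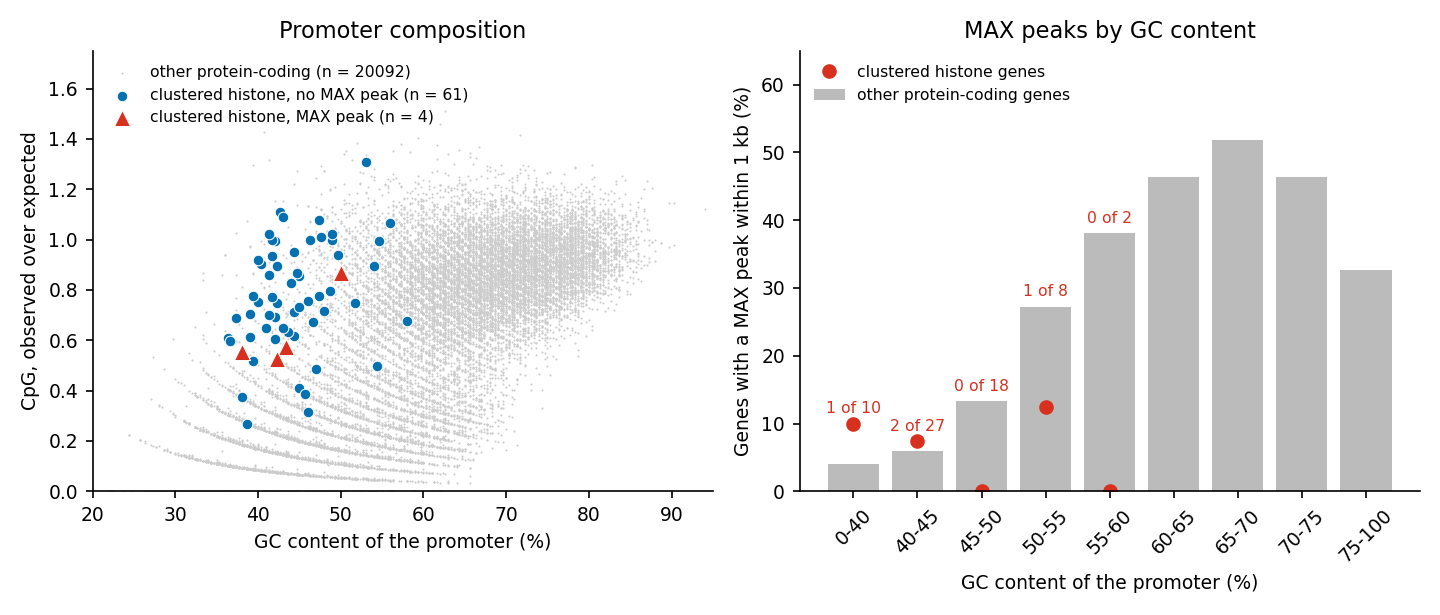
Left, GC content (%) against the CpG ratio (observed over expected) of each promoter, with other protein-coding genes in grey, the 61 clustered histone genes without a MAX peak in blue and the 4 with one in red. Right, share of genes with a MAX peak within 1 kb (%) by GC content, with bars for the other genes and red points, labelled with their counts, for the clustered histone genes, all of which lie under 60% GC. The bars are lowest under 50% GC, where 55 of the 65 histone genes lie.

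Motif letters were searched on both strands of the same 300 bp, counting overlapping matches. CACGTG was in 0 of 65 histone promoters, in 8.73% of all protein-coding promoters and in 12.9% of those with a MAX peak. Among other genes, having the letters went with a higher share of MAX peaks (53.6%, against 34.7% without them). The share in the 65 histone genes, none of which had the letters, was 6.15%. The E'-box was in 3 histone promoters (4.62%), those of H4C11, H4C12 and H2AC16, and in 5.16% of all, and these 3 genes had no MAX peak. H4C11 and H4C12 are among the genes of mostly repeated words, which carry little information.

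Letters of other promoter elements were frequent, and they differed by class. The CCAAT box, the site of the NF-Y factor, was in 55 of 65 histone promoters (84.6%) and in 35.9% of all, with all H1, H2A and H3 genes, 16 of 17 H2B genes and only 4 of 13 H4 genes. Of the 55, 31 had 3 or more copies. The octamer, the site of OCT1 (POU2F1), was in 25 histone promoters (38.5%) and in 1.58% of all, and occurred in 12 of 16 H2A and 13 of 17 H2B genes and in no gene of the other classes. Read in the direction of transcription, ATTTGCAT began a median of 49 bp upstream of the TSS, with 11 of its 12 genes encoding H2B. ATGCAAAT began a median of 192 bp upstream, with 11 of its 13 genes encoding H2A. In divergent pairs a single site could be counted from both TSSs, as with the octamer of H2BC11/H2AC11 printed above. The 25 genes with an octamer stood at 18 merged promoters, so the H2A and H2B counts are not separate sites.

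TATA letters were in 44 histone promoters (67.7%), in 9.79% of all and in 4.69% of those with a MAX peak. TATAAA began 25 to 35 bp upstream of the TSS, where a TATA box acts, in 35 of the 65 genes. Among other genes, 17.6% of those with TATA letters had a MAX peak, and among the histone genes with them 3 of 44 (6.82%, interval 2.35% to 18.2%). Likewise 38.9% of other genes with CCAAT letters had a MAX peak against 2 of 55 histone genes (3.64%, interval 1.00% to 12.3%), and 31.4% of other genes with the octamer against 2 of 25 (8.00%). Several of these genes share a promoter. Over merged promoters, the counts were 2 of 44 for CCAAT letters (4.55%, interval 1.26% to 15.1%), against 37.2% of others (36.1% to 38.4%), and 2 of 18 for the octamer (11.1%, interval 3.10% to 32.8%), against 30.3% (25.2% to 35.9%), so the intervals overlapped for the octamer. They also overlapped for TATA letters, with 3 of 36 (8.33%, interval 2.87% to 21.8%) against 17.5% (15.8% to 19.2%). In these motif groups, and in those of the E-box, the other genes had promoters of any GC content. The share of other genes with a MAX peak varied with GC content, as given above. The part of base composition in these contrasts was not tested.

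**Figure D5:**
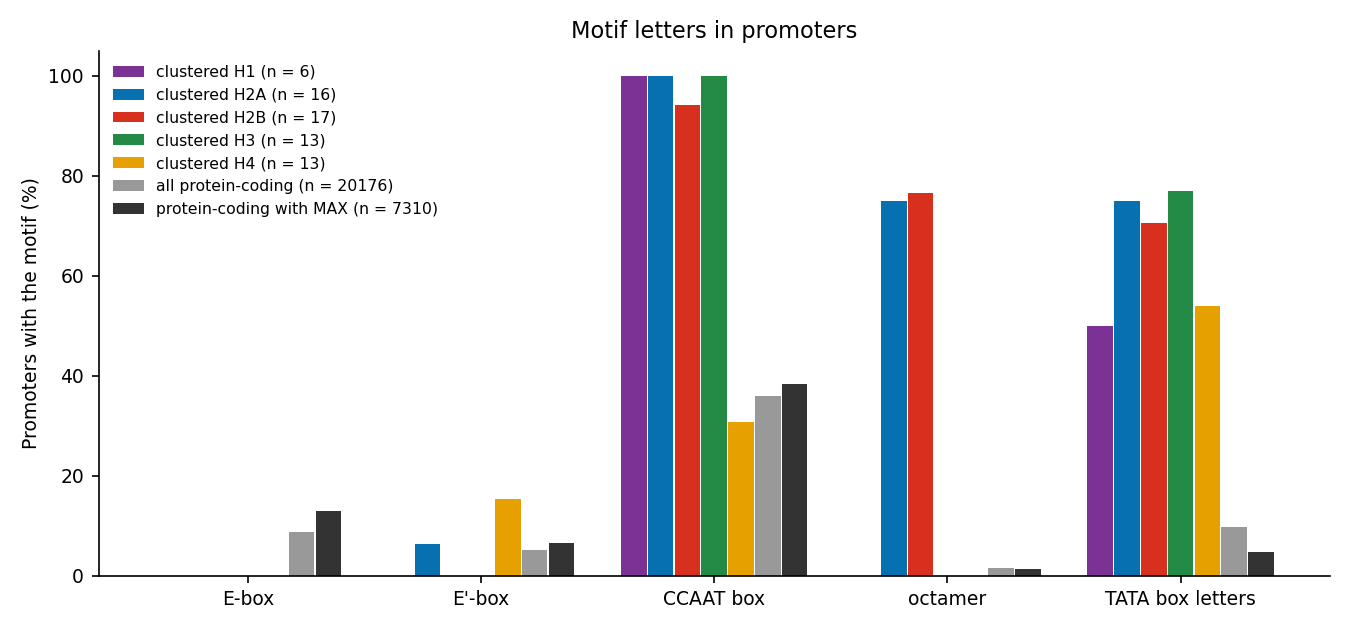
Share of promoters (%, 250 bp before to 50 bp after the main TSS) that hold the letters of each motif, for the 5 classes of clustered histone genes, for all protein-coding genes and for those with a MAX peak. The E-box has no bar in the histone classes, the CCAAT box bar is low only in H4 among them (30.8%), and the octamer has bars in H2A (75%) and H2B (76.5%) only.

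The clustered genes were also set beside genes whose products act on them or on histones. Of 20 factors of histone gene transcription and mRNA processing, 15 had a MAX peak (75%, interval 53.1% to 88.8%), against 36.2% of all protein-coding genes. The highest fold enrichments were at CCNE2, a cyclin E (48.08, pileup 100), ZNF473, a zinc finger protein of the U7 processing complex (33.99, pileup 49) and HINFP, the activator of H4 genes (24.39, pileup 49). SLBP, which binds the histone stem-loop, had 20.27, POU2F1 18.88 and NPAT 18.55. The median over the 15 strongest peaks was 14.81, and 11 of the 15 exceeded the strongest peak at a clustered histone gene. CCNE1, CDK2, E2F1, ERI1 and NFYB had no MAX peak.

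Of 18 histone chaperone and import genes, 12 had a MAX peak (66.7%, interval 43.7% to 83.7%, against 36.2% of all) with a median fold enrichment of 12.9. The highest were at IPO4, an importin (29.19), ASF1B (17.77) and NAP1L4 (15.54), both of which carry histones. Histone genes that lie outside the clusters and are mostly expressed through the cell cycle had a MAX peak at 6 of 11 (54.5%, interval 28.0% to 78.7%), which cannot be told apart from the 36.2% of all protein-coding genes. These were CENPA, the centromeric H3 (16.37), H2AZ2 (13.72), H2AX (13.2), H3-3B (12.24), H2AZ1 (10.91) and H3-3A (9.31), whereas H1-10, H2AJ, H3-5, MACROH2A1 and MACROH2A2 had none. The interval of each of the 3 lists lay above that of the clustered genes (2.42% to 14.8%). The lists differed from the clustered genes in base composition too, with median GC contents of 64.8%, 66.3% and 60.7% in the order given and CpG ratios of 0.944, 0.959 and 0.982. Other genes had a MAX peak at 46.4% from 60% to 65% GC, 51.8% from 65% to 70% GC and 51.3% at ratios from 0.8 to 1.0. These shares lay within the intervals of the chaperones and of the histone genes outside the clusters, and just under that of the factors. None of the 49 listed genes had a BMAL1 peak, a count of 0 that cannot be told apart from the share of 1.84% in all protein-coding genes.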

How the data were processed

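The study sequenced BMAL1 and MAX ChIP and input chromatin of MDA-MB-231 cells, 1 library each. The authors used BWA 0.6.2 to align reads to hg19 and called peaks with MACS2 2.0.9 for each antibody against the input, without pooling. Per the file headers, the deposited pileup is the coverage of the summit by fragments extended to 300 bp, not scaled per tag. The deposited fold enrichment is a ratio, the pileup divided by the local input background. The deposited −log10 p-values come from the same test, with a cutoff of 1e-05 in the headers and 1e-08 in the methods, and all listed peaks were used. At most 2 identical tags were kept for BMAL1 and 1 for MAX.

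A peak was assigned to each gene with a TSS within 1 kb of its summit, with GENCODE release 44 mapped to GRCh37, the assembly hg19 names. Promoters were read from that genome, and 19 masked ones had no base composition. Sequences and motif shares come from it, while the RefSeq promoter table is of another build and was not used. With 1 library per antibody no test was made. Shares carry Wilson and pileups exact Poisson 95% intervals, and a count of 0 was given the limit that 3 counts of the total allow. The assignment and word steps were tested on simulated data, and the motif step was not. Calculations used Python 3.11.15 with scipy 1.17.1, numpy 2.4.6, numba 0.67.0, pandas 2.3.3, matplotlib 3.10.9 and pysam 0.24.0.

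The genes and lists were chosen with earlier results of these data known, and 1 gene of the lists is not reported here. Named were the genes of the MAX peaks of highest and lowest fold enrichment, H1-1 to H1-6, every gene outside chromosome 6, genes without a peak by class, and the 3 highest peaks of each list. Other genes were named after their values were seen. Alternatives covered the distance, the peak position, the TSSs, the p-value threshold, repeated sequence, the measure and the motif.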

Additional observations from a re-analysis of the deposited data

How the results depend on the processing

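Between 3 and 5 clustered histone genes had a MAX peak when the summit had to lie within 300 bp (3) or 2 kb (5, by 4 peaks), when 1 bp of the peak had to lie within 300 bp (3), with protein-coding transcripts only (3), at p 1e-08 (3) and without promoters of repeated words (4). Over all protein-coding genes the share was 29.01%, 38.3%, 33.7%, 34.4%, 34.0% and 37.6% under these settings. At p 1e-12, 1 gene with 1 peak was left, H4C8, while 23.4% of all genes kept a peak. With the canonical TSS only, which was added with the data in view, 2 genes with 2 peaks were left, H4C8 and H2BC4, and 31.9% of all genes. The count thus rests on the alternative TSSs of H4C16 and H2BC6. As a pileup the median of the 4 peaks was 13.5 and as −log10 p it was 9.955, both under the medians of promoter MAX peaks (18 and 13.1), while as a fold enrichment it stayed between 10.13 and 11.07. The count of BMAL1 peaks was 0 and that of summits with CACGTG 0 under every alternative run, with E'-boxes counted as well. No paired analysis was possible because each antibody had 1 library. Genes without a listed peak may be bound below the threshold at this depth, and the 0 of BMAL1 cannot be told apart from its background share.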
